A study of Mus musculus with 10 samples.

Results

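Gene expression in quadriceps femoris, a hindlimb muscle, was compared between the inbred mouse strains C57Bl/6JOlaHsd (BL6) and DBA/2OlaHsd (DBA) on a pair of arrays in which the dyes were swapped. One array set the first DBA animal (DBA 1), labelled with Cy5, against the first BL6 animal (BL6 1), labelled with Cy3. The other array set the same BL6 animal, now in Cy5, against the second DBA animal (DBA 2) in Cy3. The pair therefore holds 1 BL6 animal and 2 DBA animals. These are 2 of the 10 arrays of a study of 5 strains, which also holds CBA/CaOlaHsd (CBA), BALB/cOlaHsd (BALB) and C57Bl/10ScSnOlaHsd (BL10), with 2 male mice per strain, killed at 8 weeks of age and with no treatment named. For the animals on these arrays, neither the labels nor the methods name a transgene or an induced allele. All 7697 features of the arrays were included, of which 6752 carry 1 gene name, and none was chosen by its value.

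The BL6 minus DBA difference of a feature was the mean of both arrays, each turned so that a negative value is a lower level in BL6, and is called the pair value here. All values are on the log2 scale after each array was centred on its median, so that −1 is a 2-fold lower level in BL6. A dye effect that is equal on both arrays cancels in the pair value. The mean Cy5 over Cy3 ratio of both arrays keeps that dye effect, together with any difference between DBA 1 and DBA 2. Errors of labelling or hybridisation on a single array enter it as well. The dye, the DBA animals and such errors cannot be told apart in this mean ratio. Each feature was printed in duplicate, which gives 4 spots per feature over the pair. Duplicate spots share a target and a slide, and both arrays share the RNA of BL6 1, so the 4 spots are not replicates of the strain.

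Tests came from a limma fit over 8 of the 10 arrays, in which every strain had its own term and a gene-wise term took up the dye. The other two arrays, labelled as BL6 2 set against CBA 1 and as BALB 1 set against CBA 2, were identical at all 15552 spots although their labels name different animals, and were left out. The labels do not say that animals of a strain came from separate litters, so p-values set a difference against the spread between these animals and arrays. The arrays hold ratios without intensities, so neither the brightness of a spot nor the level of a muscle marker within 1 sample can be read from them.

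Skeletal muscle is built from sarcomeres, in which thick filaments of myosin pull on thin filaments of actin. Nebulin runs along the thin filament, troponin and tropomyosin make it sensitive to calcium, and calcium is released from and pumped back into the sarcoplasmic reticulum at each twitch. The quadriceps of the mouse is made mostly of fast fibres, which hold their own isoforms of these proteins, together with the calcium buffer parvalbumin. BL6 and DBA are among the oldest inbred strains and differ in coat colour genes, complement, natural killer cell receptors and muscle traits.

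The pair gave small differences for most genes and a short list of large ones, nearly all of them lower in BL6. The pair values had an SD of 0.25 over all features, with a median of 0.01 and quartiles at −0.15 and 0.16. The lowest 1% lay below −0.70, whereas the highest 1% lay above 0.51. A pair value below −1 was found for 17 features (0.221% of 7697), and 15 of these had all 4 spots on the same side of 0. Above 1 there were 2 features (0.026%), Fhit and Commd1, both with 4 spots above 0. The differences between duplicate spots alone would give the pair values an SD of 0.15.

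After Benjamini-Hochberg adjustment, 0 of 7697 features passed an FDR of 10% in the limma fit (0.0%), and the smallest adjusted p was 0.113. An unadjusted p under 0.05 was reached by 723 features (9.39%), of which 435 were lower in BL6 (5.65%) and 288 higher (3.74%), where 384.9 in all are expected if no gene differs. The counts depend on the fit. Entering only the arrays of the pair gave 5 features past the FDR, and treating all arrays as independent gave 16. Leaving out 1 animal at a time gave 0 to 1106, with 1095 and 1106 without a BALB animal and 1069 without BL6 1, in fits with 1 or 2 residual degrees of freedom. No gene named in the following is therefore called changed, and the values are given as measured. The unadjusted p of the fit is given beside them and sets the fitted difference against its SE.

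What set the arrays of the pair apart was larger than what they shared. The turned ratios had an SD of 0.56 on the array with DBA 1 and 0.43 on the array with DBA 2. Across features, which are not independent replicates, they correlated at r = −0.51, and they share BL6 1. The mean Cy5 over Cy3 ratio had an SD of 0.43, larger than that of the pair value. The duplicate spots differed by an SD of 0.46 on the first array and 0.41 on the second. Pair values made from the first spots and from the second spots correlated at r = 0.53 across features.

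**Figure D1:**
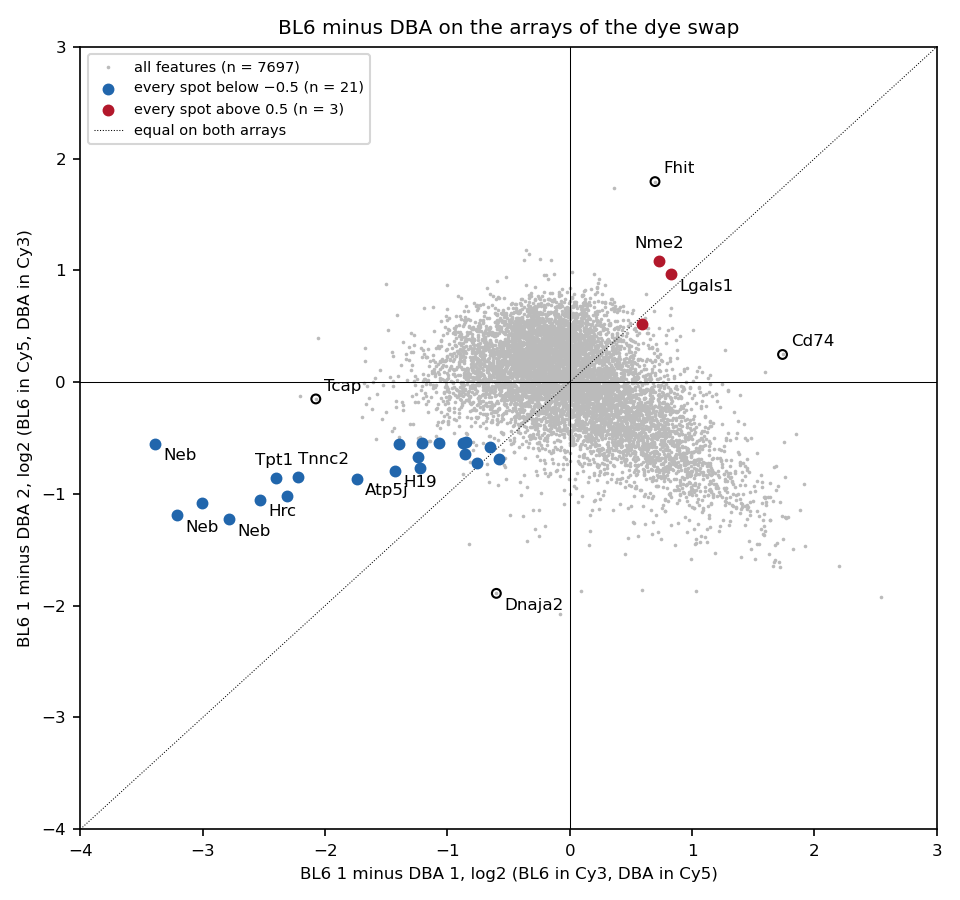
BL6 minus DBA on the array with DBA 1 (horizontal axis) against that on the array with DBA 2 (vertical axis), both in log2 units, for all 7697 features. The cloud runs from upper left to lower right (r = −0.51), while the 21 blue features, with every spot below −0.5, lie mostly above the dotted line of equal values, and the 3 red ones lie above 0 on both arrays. Open circles mark Fhit, Dnaja2, Tcap and Cd74.

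A set of 24 features (0.312%) had every one of their 4 spots past 0.5 in the same direction, 21 lower in BL6 (0.273% of all features) and 3 higher (0.039%). With no limit on size, 580 features had 4 spots below 0 (7.54%) and 549 had 4 above (7.13%), so the sides were close to even until the size was asked for. The 21 lower features come from 18 named genes and 1 unnamed oligonucleotide. Just inside the limit were the unnamed feature, a Neb feature and Rps29, with smallest spots of 0.508, 0.511 and 0.512 in size. Just outside were an unnamed feature at 0.477, a Ptk6 feature at 0.463 and Sel1l at 0.461. The set was chosen on the pair values, so their size is a description. In 21 of the 24 the difference was larger against DBA 1 than against DBA 2. The array with DBA 1 also had the larger SD over all features (0.56 against 0.43). The share of all features with a larger difference against DBA 1 was not counted, so the number cannot be read as a trait of the set. An unadjusted p under 0.05 was found for 18 of the 24, against 9.39% of all features. The fit holds the arrays on which the set was chosen, so this count is a description and not support for the set.

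**Figure D2:**
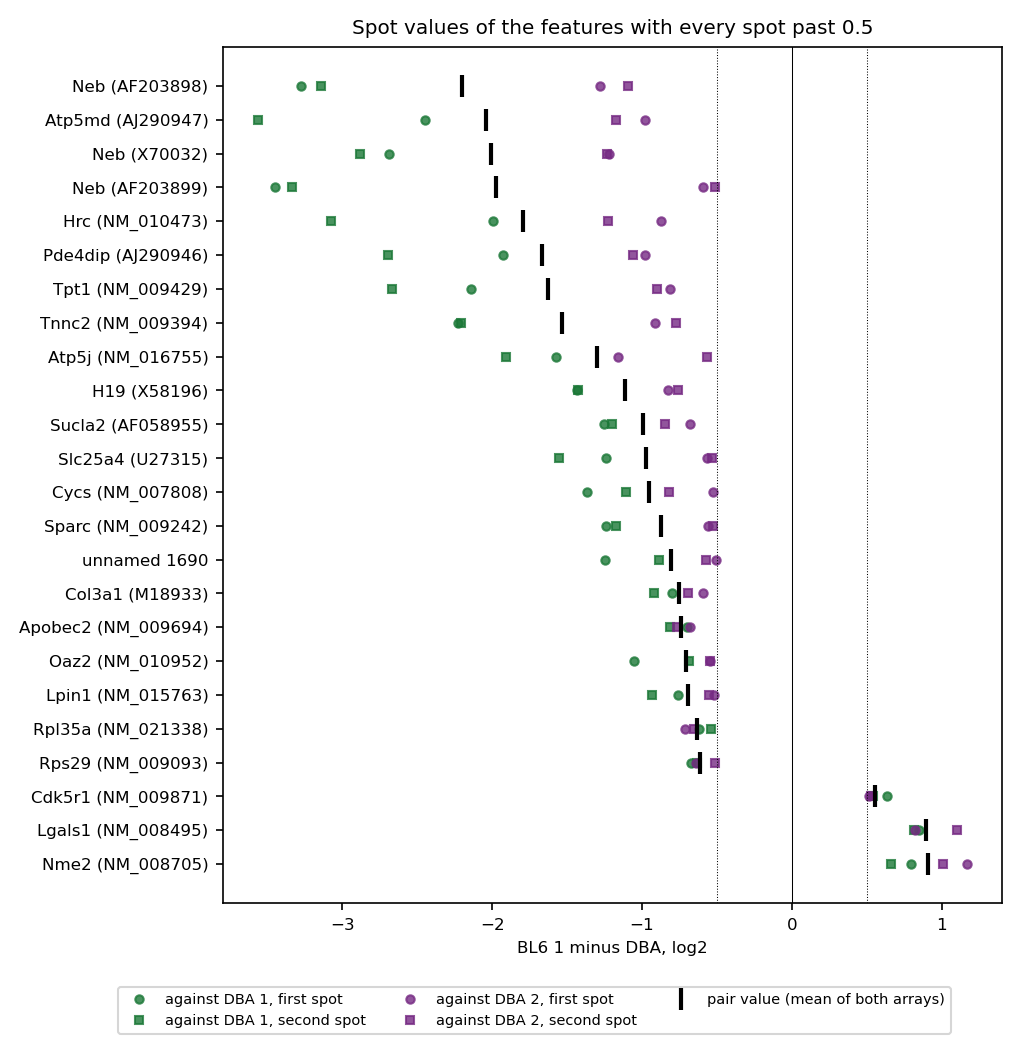
BL6 minus DBA (log2) at each of the 4 spots of the 24 features with every spot past 0.5, green against DBA 1 and purple against DBA 2, with the pair value as a black bar and dotted lines at −0.5 and 0.5. Green points lie farther from 0 than purple ones in most rows, from the Neb features down to Slc25a4, whereas for Apobec2, Rpl35a, Rps29 and Lgals1 both colours overlap or nearly so.

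Nebulin, the giant ruler protein of the thin filament, gave the lowest pair value of all. Its 4 oligonucleotides are named by their GenBank entries. For AF203898, BL6 minus DBA was −3.28 and −3.14 at the spots of the array with DBA 1 and −1.28 and −1.10 at those with DBA 2. The spots of each array lay close together and the arrays lay about 2 log2 units apart. The pair value was −2.20, a 4.59-fold lower level, and the fitted value −1.76 ± 0.46 (SE, limma over 8 arrays, unadjusted p = 0.00389, adjusted p = 0.361). The oligonucleotide X70032 gave −2.69 and −2.88 against DBA 1 and −1.22 and −1.23 against DBA 2, with a pair value of −2.01. The third, AF203899, gave −3.45 and −3.34 against DBA 1 but −0.59 and −0.51 against DBA 2, with a pair value of −1.97. These 3 features thus had 1 sign at every spot and were lower against DBA 1 than against DBA 2. The fourth, U58108, did not reach the limit, with −1.61 and −1.73 against DBA 1 and −0.14 and −0.24 against DBA 2. All 4 features had an unadjusted p under 0.05, and their adjusted p ran from 0.317 to 0.481.

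Fast troponin C (Tnnc2), the calcium sensor of the thin filament in fast fibres, followed the same pattern. Its spots read −2.23 and −2.21 against DBA 1 and −0.92 and −0.77 against DBA 2. The pair value of −1.53 is a 2.89-fold lower level in BL6, and the fit gave −1.29 ± 0.28 (SE, limma, unadjusted p = 0.00115, adjusted p = 0.325). Hrc encodes the histidine-rich calcium binding protein inside the sarcoplasmic reticulum. It read −2.00 and −3.08 against DBA 1 and −0.87 and −1.23 against DBA 2, with a pair value of −1.79 and a fitted value of −1.42 ± 0.36 (unadjusted p = 0.00346 in limma).

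Of the 18 lower genes, 5 act in mitochondria, a grouping made after their values were seen. The share of mitochondrial genes among all features was not counted, so the number cannot be read as a trait of the set. Atp5md (AJ290947), a small subunit of ATP synthase, read −2.45 and −3.56 against DBA 1 and −0.98 and −1.18 against DBA 2, a pair value of −2.04. Atp5j, coupling factor 6 of the same enzyme, read −1.58 and −1.91 against DBA 1 and −1.16 and −0.57 against DBA 2, with a pair value of −1.30 and a fitted value of −1.10 ± 0.21 (unadjusted p = 0.00056 in limma, adjusted p = 0.24). Both subunits were lower at all 4 spots. Slc25a4, the ADP/ATP carrier of heart and muscle, read −1.24 and −1.55 against DBA 1 and −0.57 and −0.53 against DBA 2. Cycs, cytochrome c, had array values of −1.24 and −0.67. Sucla2, a subunit of succinyl-CoA ligase in the citric acid cycle, had array values of −1.23 and −0.76, but its fit over 8 arrays was −0.69 ± 0.33 with an unadjusted p of 0.0667 in limma.

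The remaining lower genes have varied roles. Tpt1, the translationally controlled tumour protein, read −2.14 and −2.67 against DBA 1 and −0.81 and −0.90 against DBA 2, and its fitted value of −1.56 ± 0.24 had an unadjusted p of 0.000109 (limma, adjusted p = 0.209). Pde4dip (AJ290946), myomegalin, had a pair value of −1.67, and a second oligonucleotide for it −0.70. H19, an imprinted noncoding RNA expressed from the maternal allele and abundant in muscle, read −1.43 and −1.42 against DBA 1 and −0.83 and −0.76 against DBA 2. Duplicate spots of H19 differed by less than 0.1, and its pair value of −1.11 is a 2.16-fold lower level.

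Several genes with smaller pair values differed less between the arrays. Apobec2, a muscle member of the cytidine deaminase family, read −0.70 and −0.81 against DBA 1 and −0.68 and −0.77 against DBA 2. Its spots overlap between arrays, the mean Cy5 over Cy3 ratio was 0.02, and the fit gave −0.74 ± 0.15 (unadjusted p = 0.000735 in limma). Rps29 and Rpl35a, proteins of the small and large ribosomal subunits, had array values of −0.66 and −0.58, and −0.58 and −0.68. Col3a1, the collagen of reticular fibres, had array values of −0.86 and −0.64, and Sparc, a collagen-binding protein of the matrix, −1.21 and −0.54. Lpin1, a phosphatidate phosphatase, and Oaz2, an antizyme that holds down polyamine synthesis, had pair values of −0.69 and −0.71, and Lpin1 was at 0.04 in a fit without DBA 1. The fits of Lpin1, Oaz2, Rpl35a and Sucla2 all had an unadjusted p above 0.05.

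Higher in BL6 at every spot past 0.5 were Lgals1, Nme2 and Cdk5r1. Lgals1, galectin-1, read 0.85 and 0.81 against DBA 1 and 0.82 and 1.11 against DBA 2, so that the arrays overlap. Its pair value was 0.90, a 1.86-fold higher level, and its fit 0.82 ± 0.14 (SE, limma, unadjusted p = 0.000188, adjusted p = 0.214). Nme2, a nucleoside diphosphate kinase, read 0.80 and 0.66 against DBA 1 and 1.17 and 1.01 against DBA 2. In the fit over 8 arrays, however, Nme2 was at 0.59 ± 0.56 (unadjusted p = 0.319 in limma), and was not distinguished from 0. Cdk5r1, the p35 activator of the kinase Cdk5, had array values of 0.59 and 0.52 and a fitted value of 0.35 ± 0.21.

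Promoters of 3 of the lower genes are printed because they belong to 3 roles of the set, calcium storage (Hrc), a muscle deaminase (Apobec2) and respiration (Cycs), and hold motifs known from muscle or mitochondrial genes. Of the 21 named genes of the set, 16 had a promoter in the RefSeq table of the GRCm38.p6 assembly. That assembly is of C57BL/6J, so no DBA allele is shown. Each window has 300 bases, runs 5′ to 3′ on the strand of the gene, and carries motifs in capitals. Hrc lies at chr7:45335019-45335318 on the plus strand, Apobec2 at chr17:48432679-48432978 on the minus strand and Cycs at chr6:50566520-50566819 on the minus strand.
Hrc: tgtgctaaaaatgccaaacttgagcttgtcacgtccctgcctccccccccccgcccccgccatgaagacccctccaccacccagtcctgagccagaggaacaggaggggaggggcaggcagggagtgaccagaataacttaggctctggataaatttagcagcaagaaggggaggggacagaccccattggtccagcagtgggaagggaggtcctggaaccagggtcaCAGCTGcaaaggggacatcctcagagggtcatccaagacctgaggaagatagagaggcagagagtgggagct
Apobec2: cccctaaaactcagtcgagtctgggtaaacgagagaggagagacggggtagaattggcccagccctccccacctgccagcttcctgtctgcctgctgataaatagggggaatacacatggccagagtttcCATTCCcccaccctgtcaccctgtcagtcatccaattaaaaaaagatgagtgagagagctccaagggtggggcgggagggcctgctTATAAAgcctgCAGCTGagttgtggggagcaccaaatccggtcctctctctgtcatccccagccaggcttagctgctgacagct
Cycs: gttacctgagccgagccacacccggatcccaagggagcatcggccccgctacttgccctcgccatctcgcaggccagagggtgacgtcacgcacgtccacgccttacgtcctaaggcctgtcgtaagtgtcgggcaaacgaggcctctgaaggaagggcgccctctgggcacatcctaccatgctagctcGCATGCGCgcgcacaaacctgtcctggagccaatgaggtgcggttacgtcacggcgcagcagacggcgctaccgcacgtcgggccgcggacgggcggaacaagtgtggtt
The capitals mark an E-box (CAGCTG) in Hrc and Apobec2. They also mark an M-CAT core (CATTCC) and a TATA box (TATAAA) in Apobec2, and the core of an NRF1 site (GCATGCGC) in Cycs. Each was searched on both strands, and none of the motifs shares letters with another in these windows. Among the 16 genes, the E-box was found in 3, the M-CAT core in 2, the TATA box in 3 and the NRF1 core in 2. Some of these genes have several promoter windows, and a gene was counted if any of them held the motif. The shares that follow count each promoter by itself, so the units differ. Of all 32851 promoters of the table, 16.3% hold the E-box, 14.7% the M-CAT core, 13.6% the TATA box and 2.71% the NRF1 core. MEF2 sites and CArG boxes, found in 0.557% and 1.63% of all promoters, were found in 0 of the 16. A match is a run of letters and was not tested for any function.

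Gene lists of muscle were then described by their counts, beside the background of 5.65% of features with an unadjusted p under 0.05 and lower in BL6, 3.74% higher, and a median of 0.01. In the thin filament, 9 of 19 features were lower at that level (47.4%) and 0 were higher, with a median pair value of −0.46. The 9 are the 4 Neb features, Tnnc2, Tpm1 (α-tropomyosin), Tnnt3 (fast troponin T), Tmod1 (which caps the pointed end of actin) and Acta1 (skeletal α-actin). Tpm1 had array values of −1.36 and −0.20 and a fitted value of −0.75 ± 0.14 (unadjusted p = 0.000461 in limma). Tnnt3 had −1.06 and −0.41, whereas Acta1 had −1.01 against DBA 1 and 0.00 against DBA 2. For Acta1, a dye effect, a difference between the DBA animals and an error of a single array cannot be told apart.

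In calcium handling, 10 of 24 features were lower (41.7%) and 1 was higher, with a median of −0.35. Ryr1, the calcium release channel of skeletal muscle, was measured by X83932 (array values −1.58 and −0.51) and X78666 (−1.37 and −0.18), which both reached the level, and by another oligonucleotide at −0.16, which did not. The oligonucleotides for the related Ryr3 pointed in opposite directions, with pair values of −0.44 for D84237, 0.33 for D38218 and 0.34 for the third, of which the last had an unadjusted p above 0.05. Casq1 and Casq2, the calsequestrins that store calcium in the reticulum, had pair values of −0.50 and −0.45, but Casq1 was at 0.49 in a fit without BL6 1. Pvalb, parvalbumin, read −1.39 and −1.42 against DBA 1 but 0.11 and 0.00 against DBA 2. Its fitted value was −0.72 ± 0.13 (unadjusted p = 0.000371 in limma).

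Fast fibre genes had 5 of 12 features lower (41.7%) and 0 higher, with a median of −0.37, and slow fibre genes 1 of 10 lower and 0 higher, with a median of −0.13. The difference between these lists was not tested. The muscle lists share features, so their counts are not separate results. Tnnc2 counts in the thin filament, fast fibre and muscle marker lists, and Casq2 in the calcium handling and slow fibre lists. Of the fast genes that did not reach the level, Tnni2 (fast troponin I) had a pair value of 0.12. The muscle enzyme Ckm and myoglobin (Mb) also lay near 0, with pair values of 0.08 and 0.20. Of the 11 features of the muscle marker list, however, 8 had a pair value below 0 and 3 above. At that level 4 of the 11 were lower (36.4%) and 0 higher, with a list median of −0.27. The list medians were −0.80 against DBA 1 and 0.29 against DBA 2. Of the slow genes, Casq2 was the one that reached the level, with array values of −0.69 and −0.20.

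In the respiratory chain, 8 of 26 features were lower (30.8%), 0 were higher and the median was −0.28. Of these 8, 5 are subunits of ATP synthase, namely Atp5md, Atp5j, Atp5a1, Atp5b and Atp5pb. The list also holds Atp5j2, Atp5c1, Atp5g1 and Atp5k of ATP synthase, which did not reach the level. Their pair values were −0.28, −0.26, 0.38 and 0.28. ATP synthase was picked out with the values already known, so the 5 cannot be read as a trait of this enzyme. Atp5a1 and Atp5b, its catalytic α and β subunits, had pair values of −0.72 and −0.67, nearly all of it from the array with DBA 1 (−1.26 and −1.20, against −0.18 and −0.14 with DBA 2). The citric acid cycle had 2 of 17 lower (Sdha and Ogdh), the mitochondrial carriers 2 of 19 lower (Slc25a4 and Vdac1) and 1 higher (Timm8a1, which was at −0.51 in a fit without BL6 1), and fatty acid use 2 of 25 lower (Fabp3 and Acadl). Sdha, the flavoprotein of succinate dehydrogenase, had array values of −0.81 and −0.32. In glycolysis and glycogen use 3 of 26 were lower and 1 was higher (Tpi1), with a median of −0.04.

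Ribosomal proteins had 8 of 42 features lower and 0 higher, with a median of −0.13, and 13 of the 42 had 4 spots below 0 (31.0%, against 7.54% of all features). For Rps3a1, Rpl8 and Rps3 the larger share came from the array with DBA 2, and for Rpl7, Rps12 and Rplp1 from the array with DBA 1. For Rps3a1 and Rpl8, however, that share came from 1 spot. Rps3a1 read −0.64 and −0.68 against DBA 1 and −0.08 and −1.71 against DBA 2. Rpl8 read −0.40 and −0.39 against DBA 1 and 0.18 and −2.19 against DBA 2. The matrix and collagens had 8 of 49 lower (16.3%) and 1 higher, with a median of −0.05. The higher one was an oligonucleotide for Col6a3 at 0.56, while the other features of that gene were at 0.09 and −0.28. Col1a1, the main fibrillar collagen of tendon and fascia, had array values of −0.45 and −0.52 and a fitted value of −0.58 ± 0.15 (unadjusted p = 0.00298 in limma). Its spots read −0.41 and −0.50 against DBA 1 and −0.54 and −0.51 against DBA 2, which lie close together without overlapping.

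The remaining lists lay on either side of the background. The proteasome had 0 of 31 features at that level in either direction, with a median of 0.02, the translation factors 2 of 32 lower and 2 higher, and the ubiquitin system 1 of 57 lower and 3 higher. The clock genes had 1 of 18 lower, Bhlhe40. Heat shock and folding had 6 of 42 lower (14.3%) and 0 higher, the myogenic regulators 4 of 28 lower (H19, Igfbp5, Myog and 1 of the features of Tead4), the dystrophin complex and repair genes 3 of 24 lower (Sgca, Sgcd and Dag1), and the Z-disc 3 of 20 lower (Tcap, Actn2 and Flnc) and 1 higher (Fhl3). Actn2, α-actinin 2, was lower against both DBA animals (array values −0.37 and −0.83), whereas Tcap, telethonin, was lower mainly against DBA 1 (−2.08 and −0.15). Of the immediate early genes, Egr1 and Zfp36 were the 2 of 21 that reached the level, both higher, with pair values of 0.59 and 0.46.

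**Figure D3:**
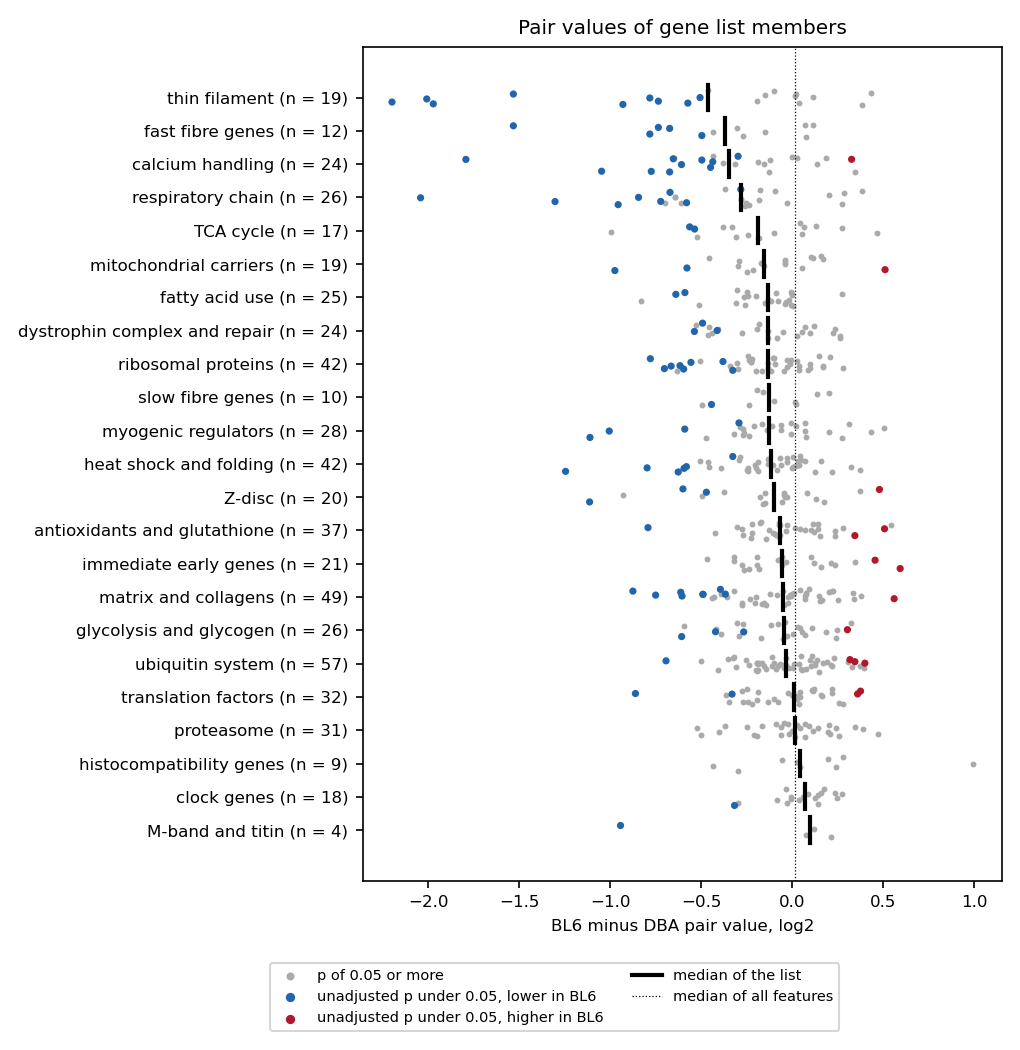
Pair values (BL6 minus DBA, log2) of the features of each gene list, blue or red where the unadjusted p of the limma fit was under 0.05, with the list median as a black bar and the median of all features (0.01) as a dotted line. Marker lists, lists of known or published genes and the thick filament, with 1 feature, are not drawn. Of the lists drawn, the medians of the thin filament (−0.46), fast fibre (−0.37), calcium handling (−0.35) and respiratory chain (−0.28) lists lie farthest to the left, and the proteasome median lies on the dotted line.

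The muscle lists were low on 1 array of the pair. Against DBA 1 the medians were −0.86 for the thin filament, −0.86 for fast fibre genes, −0.64 for calcium handling and −0.50 for the respiratory chain. Against DBA 2 they were 0.00, 0.19, 0.04 and −0.16. Hence only the respiratory chain, among these 4 lists, had a median below 0 on both arrays. Lists outside these 4 had this as well, among them ribosomal proteins (−0.24 and −0.14) and fatty acid use (−0.15 and −0.10). The mean Cy5 over Cy3 ratio of the pair had a median of 0.45 for the thin filament and 0.53 for fast fibre genes. On the 6 other arrays of the fit, the median Cy5 over Cy3 ratio of the thin filament list ran from 0.02 to 0.80 and that of the fast fibre list from −0.12 to 0.67. The highest of these values came from the array with BALB 2 in Cy5 and BL6 2 in Cy3. For the thin filament, the remaining arrays lay between 0.02 and 0.20. The median ratio of the respiratory chain list ran from −0.43 to 0.31 on the 6 other arrays. How much of the gap between the arrays of the pair came from the dye, from the DBA animals or from errors of a single array cannot be told apart.

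The array with BALB 2 and BL6 2 shares no animal with the pair and was not used to choose the set of 24. Turned to BL6 2 minus BALB 2, 17 of the 21 lower features were below 0, with a median of −0.86 and a range from −2.56 to 0.46, where 49.99% of all features were below 0. The Neb features of the set read −2.00 (AF203898), −2.56 (X70032) and −1.70 (AF203899) on it, Atp5md −2.47, Tpt1 −2.35 and Slc25a4 −2.27. Above 0 there were Rpl35a at 0.46, Oaz2 at 0.28, Lpin1 at 0.14 and Sucla2 at 0.10. Of the 3 higher features, Nme2 read 0.56, Cdk5r1 0.06 and Lgals1 −0.13. This array compares BL6 with BALB and not with DBA, and BL6 is in Cy3, as it is on the array with DBA 1.

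A difference between BL6 and DBA can also be fitted without BL6 1, so that BL6 is represented by BL6 2 and reached from DBA through BALB and BL10. This fit uses the same DBA animals, has 1 residual degree of freedom and carries the errors of several arrays, so that its SE is itself uncertain. BL6 enters this fit only through the array with BALB 2 and BL6 2 described above, so the fit is not a second check beside that array. All 21 lower features were below 0 in the fit, where 48.4% of all features were. Rpl35a, Oaz2, Lpin1 and Sucla2, above 0 on that array, were at −0.14, −0.06, −1.32 and −1.46. The signs in the fit thus also rest on the arrays without BL6, and the count is a description and not support for the pair values. Tnnc2 was at −2.07, Hrc at −1.24, H19 at −1.33, Apobec2 at −0.51 and Atp5j at −0.80. Of the higher features, Lgals1 was at 0.66, but Cdk5r1 was at −0.92 and Nme2 at −5.64. Fhit and Commd1 had the largest positive pair values of the pair, 1.25 and 1.05, and were at −5.35 and −4.26 in this fit. The fitted differences of Nme2, Fhit and Commd1 thus turned their sign when BL6 1 was left out. On the array with BALB 2 and BL6 2 itself, BL6 2 minus BALB 2 was 0.61 for Fhit and −0.17 for Commd1, so that values of this size were not seen there.

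**Figure D4:**
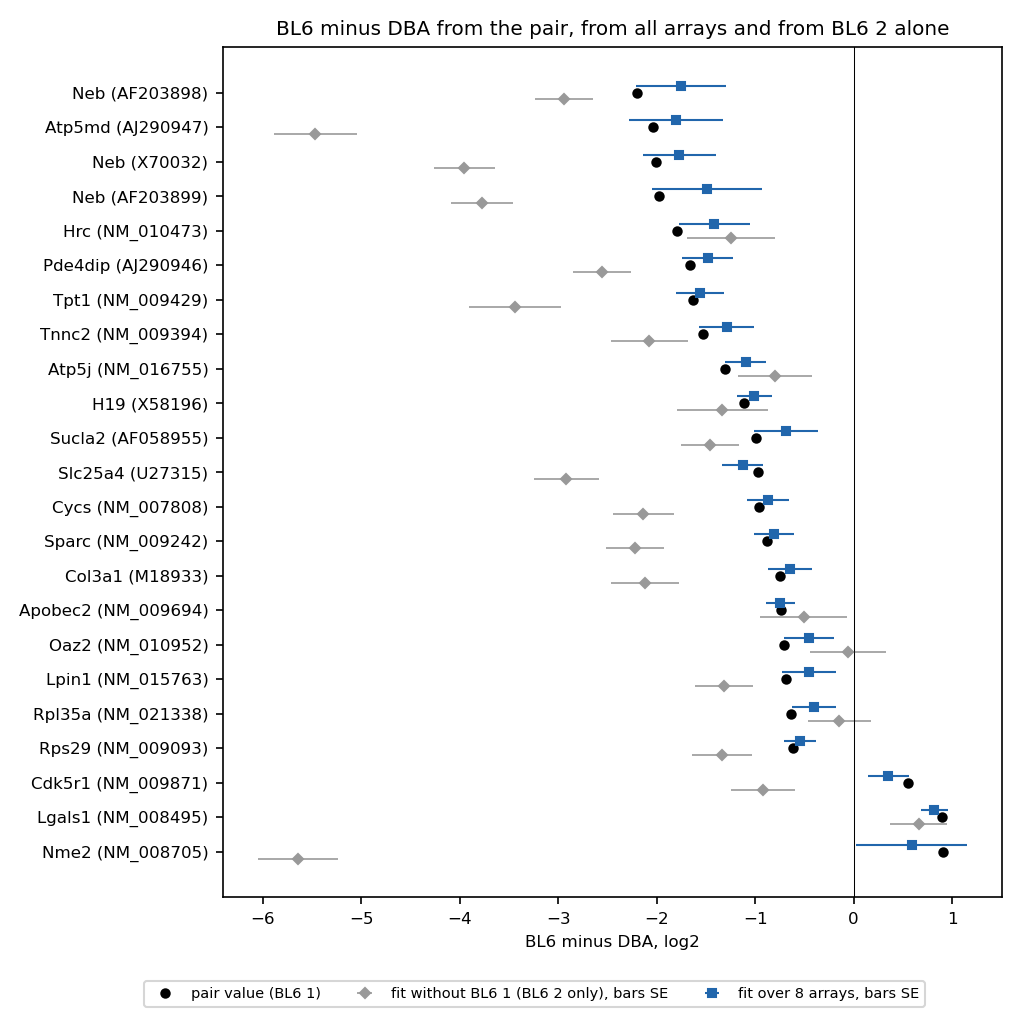
BL6 minus DBA (log2) of the 23 named features of the set, as the pair value (black points), in the fit over 8 arrays (blue squares with SE) and in the fit without BL6 1 (grey diamonds with SE). The 20 lower features lie left of 0 by each measure, with the grey values spread from −5.47 for Atp5md to −0.06 for Oaz2, and Nme2 and Cdk5r1 change sides in the fit without BL6 1.

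The fitted levels of the 5 strains, each relative to their mean, place BL6 and DBA for these genes. BL6 was the lowest strain for 19 of the 21 lower features, DBA the highest for 5 and BALB the highest for 12. The set was chosen for low BL6 minus DBA values on arrays that this fit holds, so a low rank of BL6 follows in part from the choice. The same ranks were not counted over all features. For Neb (X70032) BL6 was at −1.74 and DBA at 0.03, and for H19 at −0.88 and 0.12. DBA thus lay near the mean of the 5 strains, but it was the lowest strain after BL6 for both. BL6 was also lowest for Atp5md, at −1.82 with DBA at −0.01, and for Pde4dip, at −1.16 with DBA at 0.33. For Tnnc2 the levels were −0.60 in BL6 and 0.69 in DBA, and for Atp5j −0.34 and 0.76, so that both strains lay away from the mean in opposite directions. The lowest strain for these genes was CBA, at −0.62 for Tnnc2 and −0.56 for Atp5j.

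A few genes, picked after their values were seen, had a high fitted level in DBA. Igfbp5, an insulin-like growth factor binding protein made by differentiating muscle cells, read −1.63 and −1.76 against DBA 1 and −0.38 and −0.25 against DBA 2. Its fitted levels were −0.07 in BL6 and 0.81 in DBA. Pvalb was at 0.11 in BL6 and 0.83 in DBA, with array values of −1.40 against DBA 1 and 0.06 against DBA 2. Vcp, an ATPase of protein quality control, was at −0.21 and 0.53, with array values of −1.08 and −0.36. In all 3 the pair differed mainly against DBA 1. BL6 lay within 0.25 of the strain mean in all 3, while DBA lay at least 0.5 above it. Lgals1 was the reverse, with BL6 at 0.35 and DBA at −0.47. The strain levels hold the arrays of the pair and are not independent of the pair values.

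**Figure D5:**
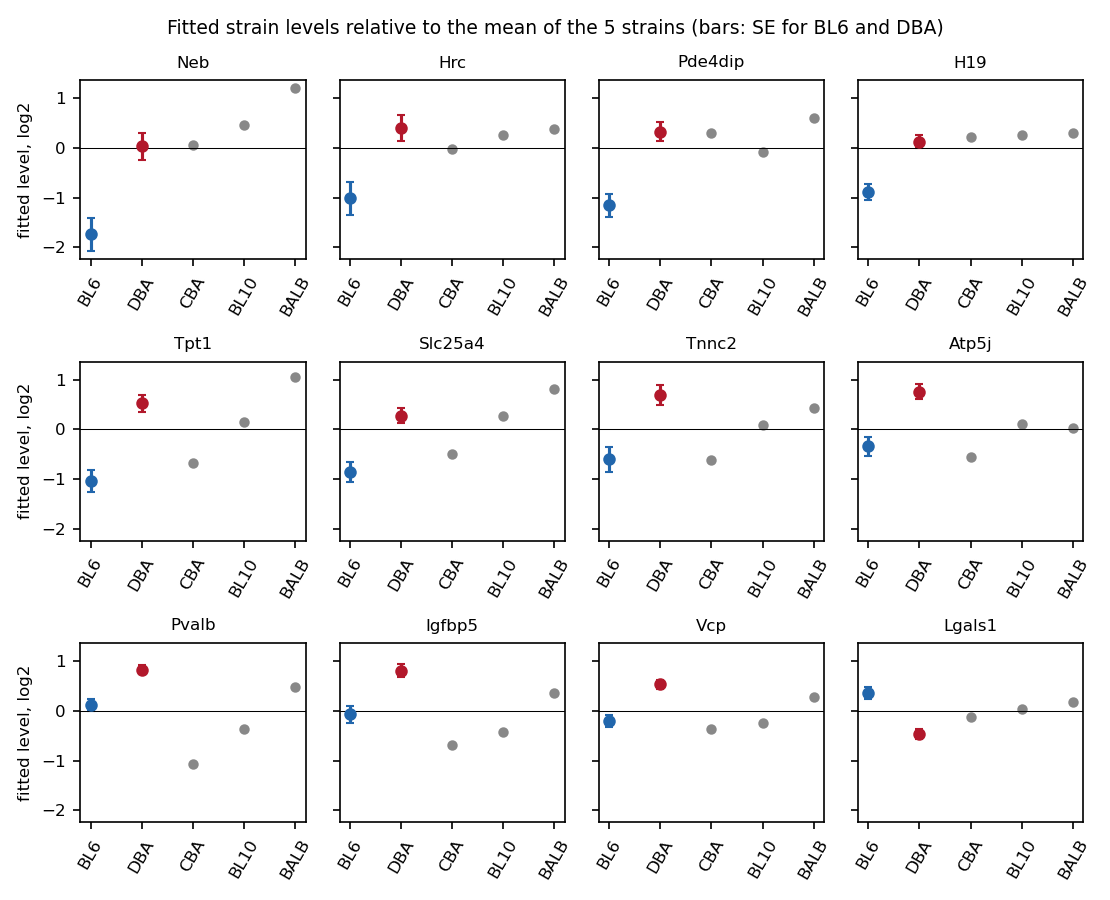
Fitted levels (log2, relative to the mean of the 5 strains) of 12 genes in BL6 (blue), DBA (red) and the other strains (grey), with SE bars for BL6 and DBA. BL6 is the low strain for Neb (X70032), Hrc, Pde4dip, H19, Tpt1 and Slc25a4, whereas for Pvalb, Igfbp5 and Vcp it is DBA that lies highest and BL6 lies near 0.

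The features closest to the FDR were not those with the steadiest spots. Dnaja2, a co-chaperone of Hsp70, Hcrt, the precursor of the orexin neuropeptides, and Pkmyt1, a kinase that inhibits Cdk1, shared the smallest adjusted p of 0.113. Hcrt read −0.45 and −1.21 against DBA 1 and 0.51 and −3.41 against DBA 2, so that its duplicate spots disagreed in sign. Pkmyt1 read −0.63, −0.07, 0.17 and −3.01 in the same order, and Dnaja2 −0.24, −0.96, −2.88 and −0.90. Single spots likewise set the values of Tcp1, Park7, Rpl8 and Timp2, each with 1 spot of the array with DBA 2 below −2 and the other above −0.1. The largest value among histocompatibility genes, Cd74 at 0.99, came from a single spot of 3.20 beside spots of 0.28, 0.13 and 0.37.

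Higher in BL6 with 4 spots above 0 was also Clec2i, a C-type lectin of the natural killer gene complex. It read 0.55 and 1.09 against DBA 1 and 0.38 and 0.82 against DBA 2, and its fitted value was 0.67 ± 0.13 (SE, limma, unadjusted p = 0.000473, adjusted p = 0.214). Gclc, the catalytic subunit of the enzyme that limits glutathione synthesis, had array values of 0.38 and 0.63 and a fitted value of 0.46 ± 0.14. Fhit, a hydrolase of diadenosine polyphosphates, read 1.02 and 0.37 against DBA 1 and 1.91 and 1.68 against DBA 2. In the fit over 8 arrays the unadjusted p was 0.113 for Fhit and 0.14 for Commd1 (limma), so that neither stood out from its error.

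Of the 8 genes that the text of the study names, measured by 11 features, 7 features were lower in BL6 at an unadjusted p under 0.05 and 1 was higher. The list was chosen by the study on these samples and is not independent evidence of a direction. Besides Neb and Actn2, these were Myom1, the M-band protein myomesin 1, with array values of −1.45 and −0.44 and a fitted value of −0.76 ± 0.23 (unadjusted p = 0.00805 in limma), and Tmod1, with −0.91 and −0.24. Cstb, a cysteine protease inhibitor, was the higher one, with array values of 0.44 and 0.56, but stood at −1.18 in a fit without BL6 1. Thbs4 and Dysf had pair values of −0.15 and −0.13 and fitted values of −0.17 ± 0.12 and −0.06 ± 0.19. Rdx, radixin, read −1.48 and −1.61 against DBA 1 but 0.30 and −0.07 against DBA 2. The study itself reported no difference between strains for Dysf, Cstb and Thbs4, on its arrays and by quantitative RT-PCR. It reported Myom1 and Tmod1 as lower in BL6 than in the other strains by both methods.

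Genes known to differ between some C57BL/6 and DBA/2 lines by allele or copy number were looked up as a check on the strains. Neither the labels nor the methods say whether the substrains used here carry these differences. Of the genes looked up, 7 were found on the arrays, and 0 of the 7 had an unadjusted p under 0.05. Tyrp1, the brown coat colour gene, had a pair value of −0.26 and Hc, complement C5, −0.27. Anxa6 had −0.46, Alad, a heme synthesis enzyme, 0.06, Gpnmb 0.08, Klrd1, a natural killer cell receptor, 0.10 and Nnt 0.11. The SE of these fits ran from 0.13 to 0.19. Ratios hold no level, so whether these genes were detected in muscle is not known, and the list gave no check of the strains.

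Muscle holds other cells, and a whole tissue ratio cannot tell fewer cells of a type from less RNA per cell. Leukocyte markers had 1 of 11 features at an unadjusted p under 0.05, Lyz2, higher in BL6 with array values of 0.49 and 0.27, and a list median of −0.01. Of the 6 fibroblast features 2 were lower, Col1a1 and Col3a1. Endothelial (7 features), smooth muscle (3), Schwann cell (4), adipocyte (5) and erythroid (2) markers had 0. Adipocyte markers had a median of 0.00, but Fabp4, the fatty acid binding protein of fat cells and capillaries, was at −2.06 against DBA 1 and 0.39 against DBA 2. The share of these cells in the values of the muscle genes was not tested.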

How the data were processed

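Per the study's methods, the authors quantified the spots in GenePix Pro, corrected them for local background and then applied variance stabilization (VSN). The deposited table gives a log ratio of Cy5 to Cy3 at each of 15552 spots per array. These deposited values were taken as natural log (ln) ratios, as VSN gives, since the labels and files do not state the base. If they were log2 already, every log2 value here would be 1.44 times too large. The direction was taken from the dyes in the labels. Spots marked by GenePix are not identified, so every feature was kept. Depth does not apply, and the number of animals limits the precision.

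Duplicate spots, 648 places apart, were averaged, the ratios rescaled to log2 and the median of every array set to 0. The 80 features of 1 control oligonucleotide were averaged to 1. Gene names came from the array annotation, updated through a RefSeq table of GRCm38.p6, which held 6722 of the 7697 features. The BL6 minus DBA contrast was fitted in limma 3.58.1 (R 4.3.3), with the animal as a random effect of 1 variance ratio for all genes (0.446, by restricted maximum likelihood), 3 residual and 6.13 prior degrees of freedom, and Benjamini-Hochberg adjustment over 7697 features. Tables and figures used Python 3.11.15 with pandas 2.3.3 and matplotlib 3.10.9. The steps were tested on simulated data.

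The genes named were those past the FDR, up to 10 in each direction with every spot past 0.5, up to 4 of each gene list, the genes in the text of the study and genes known to differ between the strains, while further genes were added after their values were seen. The 20 named lower features with every spot past 0.5 were all given, more than the 10 of the rule. Members and lists were chosen with earlier results of these data known. Alternatives covered the arrays used, the dye term, centring, scaling, single spots, the test and leaving out each animal.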

Additional observations from a re-analysis of the deposited data

How the results depend on the processing

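The fit over 8 arrays left 0 features past the FDR of 10% and 723 by unadjusted p. The count past the FDR was 2 with all 10 arrays as labelled, 9 with the shared values entered once as BL6 2 against CBA 1 or with equal array spreads, and 5 with only the 2 arrays of the pair (38 features then had an unadjusted p under 0.05). It was 15 with a term of its own for BL6 1 (1347 by unadjusted p) or with the second spot alone, 16 with arrays as independent or with quantile normalization, 4 with the first spot alone and 29 with duplicate spots as separate measurements. It stayed at 0 where BALB 1 against CBA 2 was the label kept for the shared values, with no dye term (340 by unadjusted p), without centring, in the ordinary and robust tests and at an FDR of 5%. The causes were not tested. Of 101 features named in the report, 33 passed in at least 1 of 15 such settings (all but the FDR of 5%), Lgals1 in 8, Tpt1 in 7, and Atp5j and Pde4dip in 6 each.

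Leaving out 1 animal at a time gave 0 to 1106 features past the FDR and 113 to 2119 by unadjusted p. The counts were 1095 without BALB 1, 1106 without BALB 2, 1069 without BL6 1, 145 without DBA 1, 14 without either BL10 animal and 0 without BL6 2 or either CBA animal. These fits hold 1 or 2 residual degrees of freedom, and the fit without DBA 2 was not run, since the terms could then not be separated.

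Among the 101 features, 10 turned their sign in 13 of 1515 values. With the first spot alone Hcrt was at 0.015, Alad at −0.175 and Cd74 at −0.022. With the second spot alone the third Ryr1 feature was at 0.041, Dysf at 0.39 and a Col6a3 feature at −0.015. Without a dye term Tyrp1 was at 0.068, Alad at −0.116, Klrd1 at −0.037, Nnt at −0.07 and Tnni2 at −0.037. Klrd1 was also at −0.017 with all 10 arrays and −0.013 with the shared values as BL6 2 against CBA 1. Leaving out an animal turned 21 features, of which 14 turned without BL6 1 and 8 without DBA 1. Over the animals left out, values ran from −3.30 to 0.77 for Fabp4, −0.80 to 0.003 for Park7, −1.62 to 0.072 for Rdx, −1.32 to 0.041 for Lpin1, −0.50 to 0.49 for Casq1, −0.28 to 0.21 and −0.11 to 1.14 for the Col6a3 features that missed the level, −0.27 to 0.54 for Hc, −0.26 to 0.22 for Tyrp1, −1.24 to 0.23 for Dysf and −0.098 to 0.23 for Alad. They ran from −0.59 to 0.35 for Gpnmb, −0.13 to 1.38 for Klrd1, −0.11 to 0.41 for Mb, −0.615 to 0.34 for the third Ryr3 feature, −1.18 to 0.60 for Cstb, −0.51 to 0.51 for Timm8a1, −0.92 to 0.55 for Cdk5r1, −5.64 to 1.26 for Nme2, −4.26 to 1.11 for Commd1 and −5.35 to 1.79 for Fhit.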
